A study of Homo sapiens with 52 samples.

Results

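The genes examined here are the 10 that form the G1 checkpoint of the cell cycle: the D cyclins CCND1, CCND2 and CCND3, their kinases CDK4 and CDK6, the E cyclins CCNE1 and CCNE2, and the retinoblastoma family RB1, RBL1 and RBL2. They are picked out by name alone, although the set was proposed with earlier results of these data known. All 10 were found among the 27043 gene names of the tables, and all 10 were among the 16359 genes that passed the filter on low values (at least 1 TPM in 2 or more of the 52 samples). TPM counts transcripts per unit of gene length, scaled to the same total in every sample, so levels of different genes can be compared.

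The cells were of fusion-positive rhabdomyosarcoma (FP-RMS), a childhood muscle-lineage tumour driven by the PAX3-FOXO1 fusion gene, which every sample carried, controls included. The screen exposed cells for 6 h to 20 compounds, each in 1 sample at a high dose and 1 at a dose 10 times lower: 5 and 0.5 µM for Cpd50, GSKJ4 and LAQ824, and 10 and 1 µM for the other 17. Its 4 controls were treated with the solvent DMSO, 2 samples at 0.2% and 2 at 0.1%. Of the compounds, 7 act on histone acetylation, namely LAQ824 (target HDAC), Merck60 (HDAC1/2), MC 1568 (HDAC4/5), WT161 (HDAC6), OJI-1 (HDAC8), bromosporin (bromodomains) and SGC-CBP30 (CREBBP/EP300 bromodomain). A further 11 act on histone methylation, namely EZ-005 (EZH2), UNC1999 (EZH1), UNC0638 (KMT1C), SGC0946 (DOT1L), PFI-2 (SETD7), UNC-1215 (L3MBTL3), Cpd50 (Jumonji demethylases), GSKJ4 (JMJD3/UTX), and GSKLSD1, LSD-519 and LSD-690 (all LSD1). PFI-3 (SMARCA4) and Trametinib (MEK1/2) were put on neither axis here. The paper counts the remodeler targeted by PFI-3 among those with acetylation-reader domains, and no comparison with PFI-3 on the acetylation axis was run. In separate experiments cells received 1 µM of the HDAC inhibitor N1302 for 6 h, or 1 µM entinostat (HDAC1/2/3) for 1, 6 or 24 h, each with 1 DMSO sample per time. The screen titles give the cell line as RH41 and the cell line label as RH4, so the screen was not set directly against the other experiments.

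D cyclins are made in response to growth signals and switch on CDK4 and CDK6. These kinases begin the phosphorylation of RB1 and of its relatives p107 (RBL1) and p130 (RBL2), the pocket proteins, which hold E2F transcription factors in check. Released E2F factors raise transcription of S-phase genes and of the E cyclins, whose partner CDK2 completes the step into DNA replication, and RBL1 is itself a known E2F target.

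In build hg19, CCND1 lies on chromosome 11 from 69455873 to 69469242, CCND2 on chromosome 12 from 4382902 to 4414522, and CCND3 on chromosome 6 from 41902671 to 42016632. CDK4 lies on chromosome 12 from 58141510 to 58146230 and CDK6 on chromosome 7 from 92234235 to 92465941. CCNE1 lies on chromosome 19 from 30302901 to 30315224, RB1 on chromosome 13 from 48877883 to 49056026, RBL1 on chromosome 20 from 35624755 to 35724618, and RBL2 on chromosome 16 from 53468332 to 53525560. The annotation gives all 10 as protein coding, and each value covers a whole gene. Whether counting used strand is not given in the sources used here, and 4 members overlap a gene with a mean of over 5 TPM in the screen DMSO samples at one of their ends: TSPAN31 (60.5 TPM) with CDK4, LOC101927497 (61.1 TPM) with CDK6, INTS8 (52.9 TPM) with CCNE2 and AKTIP (5.96 TPM) with RBL2. The record of a microRNA, MIR6759 (16.2 TPM), lies inside CDK4, and microRNA names that the tables stretch over many megabases, such as MIR3654 across CCND1, were left aside.

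The RefSeq promoter table (build GRCh38.p14) held 7 of the 10 members, with CCND1, CCND2 and CCNE2 unmatched. The promoters of CDK4, CDK6 and RBL1 are printed because these genes were lower under both bromosporin and LAQ824, as given below. Each is 300 bases around a transcription start, on the gene's own minus strand. Capitals mark CACGTG, the E-box form bound by MYC-family factors, CAGCTG, an E-box form bound by muscle factors of the MYOD1 family, and TTTCGCGC or TTTGGCGC, E2F motifs, each searched on both strands.
CDK4 chr12:57752261-57752560: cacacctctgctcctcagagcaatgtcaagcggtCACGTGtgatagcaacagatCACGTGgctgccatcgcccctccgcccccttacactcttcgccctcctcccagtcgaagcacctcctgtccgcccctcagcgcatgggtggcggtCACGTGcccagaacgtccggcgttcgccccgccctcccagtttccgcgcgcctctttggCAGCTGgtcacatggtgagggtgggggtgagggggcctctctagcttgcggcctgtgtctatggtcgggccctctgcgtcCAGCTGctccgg
CDK6 chr7:92836524-92836823: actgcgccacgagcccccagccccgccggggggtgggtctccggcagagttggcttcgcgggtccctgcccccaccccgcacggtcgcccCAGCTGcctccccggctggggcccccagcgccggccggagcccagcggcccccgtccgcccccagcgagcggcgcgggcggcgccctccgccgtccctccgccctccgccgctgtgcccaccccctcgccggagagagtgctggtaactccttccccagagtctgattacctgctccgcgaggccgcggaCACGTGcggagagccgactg
RBL1 chr20:37095948-37096247: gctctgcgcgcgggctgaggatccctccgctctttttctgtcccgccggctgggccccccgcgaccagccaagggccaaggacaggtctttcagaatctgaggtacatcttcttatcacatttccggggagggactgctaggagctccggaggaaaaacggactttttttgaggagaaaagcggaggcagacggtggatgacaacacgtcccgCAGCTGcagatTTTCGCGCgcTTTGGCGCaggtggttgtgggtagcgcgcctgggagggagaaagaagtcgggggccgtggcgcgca
The CDK4 window held 3 CACGTG and 2 CAGCTG, the CDK6 window printed above 1 of each, and the RBL1 window 1 CAGCTG and 2 E2F motifs that stand 2 bases apart. A second CDK6 window in the RefSeq table, chr7:92833910-92834209 on the minus strand, held 0 of these motifs. Of 35116 promoter windows of the same length, 7.26% held CACGTG, 17.9% CAGCTG and 1.15% one of the E2F motifs. These are matches of letters, and no binding was measured here.

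Depth was worked out from the TPM values and came to at least 5390632 to 38944434 reads per sample. The 28 samples of flow cell C5JW5ACXX (14 compounds) and the 4 of H0VWNAGXX (GSKLSD1 and UNC-1215) had no DMSO sample on their flow cell, whereas LAQ824 and MC 1568 shared H144EBGXX with DMSO replicate 2 of each concentration, and Cpd50 and GSKJ4 shared C4JM1ACXX with replicate 1. The 2 DMSO samples of a concentration came from different flow cells. In variance over 10257 genes, the difference between these flow cells was 2.18 times counting noise, and that between concentrations 2.45 times. Once both differences were taken out, what remained was 1.03 times counting noise in variance. The mean of the 2 samples of a concentration was counted as 1 sample. Summed levels of 8 muscle and fusion-tumour markers, MYOD1, MYOG, DES, PAX3, FOXO1, FGFR4, ALK and MYCN, were 1051 to 3267 TPM, while epithelial markers summed to at most 1.85 TPM, endothelial ones to at most 1.94 TPM and haematopoietic ones to at most 9.87 TPM, of which CD14 gave up to 9.79 TPM. In such bulk samples fewer cells of a type and less RNA per cell cannot be told apart.

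In screen DMSO the kinases were the most abundant members, at 647 ± 17.5 TPM for CDK4 and 331 ± 14.9 TPM for CDK6 (mean ± SD, n = 2 concentrations, here and in the next sentences). CCNE1 followed at 193 ± 1.91 TPM, CCND2 at 166 ± 0.208 TPM and CCND3 at 97.0 ± 3.93 TPM. RB1 stood at 70.4 ± 1.88 TPM, CCNE2 at 59.7 ± 0.278 TPM and CCND1 at 48.4 ± 6.25 TPM, and the lowest were RBL2 at 36.0 ± 0.193 TPM and RBL1 at 29.1 ± 0.0332 TPM. The ranges of the 4 DMSO samples did not overlap between any neighbours in this order. CCND2 was thus the main D cyclin transcript of these cells, CCNE1 the main E cyclin and RB1 the main pocket protein transcript.

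CCND1 also differed most between the DMSO concentrations. It measured 44.9 and 43.1 TPM at 0.2% and 52.3 and 53.4 TPM at 0.1%, a log2 difference of -0.26 ± 0.03 (SE). With limma 0 of 16359 genes, members included, differed between the concentrations at an adjusted p below 0.05, and 1548 genes and 2 members, CCND1 and CDK4, had an unadjusted p below 0.05. Differences of log2(TPM + 1) are therefore given per dose against the DMSO of the titles' dose level (0.2% for high, 0.1% for low), and tests set both doses of a compound against both concentrations.

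Over 20 compounds and 10 members, limma called 22 of 200 pairs at an adjusted p below 0.05, 19 lower and 3 higher, and all 22 fell on 6 compounds. Bromosporin had 6 members lower, where 23.4% of all genes tested were called lower, and 1 higher, where 12.4% were called higher. LAQ824 had 5 lower against a background of 24.6%. WT161 had 3 lower (background 14.3%) and 1 higher (background 17.7%). SGC-CBP30 had 2 lower (background 2.68%), Trametinib 3 lower (background 1.37%) and GSKLSD1 1 higher (background 2.81%). For the other 14 compounds, 0 of 140 pairs were called and 9 had an unadjusted p below 0.05. Over all 16359 genes these 14 ranged from 2 called lower and 0 higher for GSKJ4 to 478 lower and 3205 higher for MC 1568. The 2 doses served as the replicates of a compound, and each gene had 1 spread shared by all compounds. The p-values thus rest on the spread between doses pooled over the screen, any effect of dose included, and not on a compound's own 2 samples. A gene's SE is therefore the same for every compound, such as 0.42 for CDK6. Of the 22 calls, 14 were lost without the high-dose samples and 4 without the low-dose ones, 10 without 0.2% DMSO and 11 without 0.1% DMSO. Lying outside the range of the 4 DMSO samples was common and is no test. Both doses lay below that range under 13 of 20 compounds for CDK4 and for CCNE1, and above it under 12 for CCND2. For CDK6 it was 6 below and 6 above, and for CCND1 9 and 3. The share over all genes was not worked out.

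**Figure D1:**
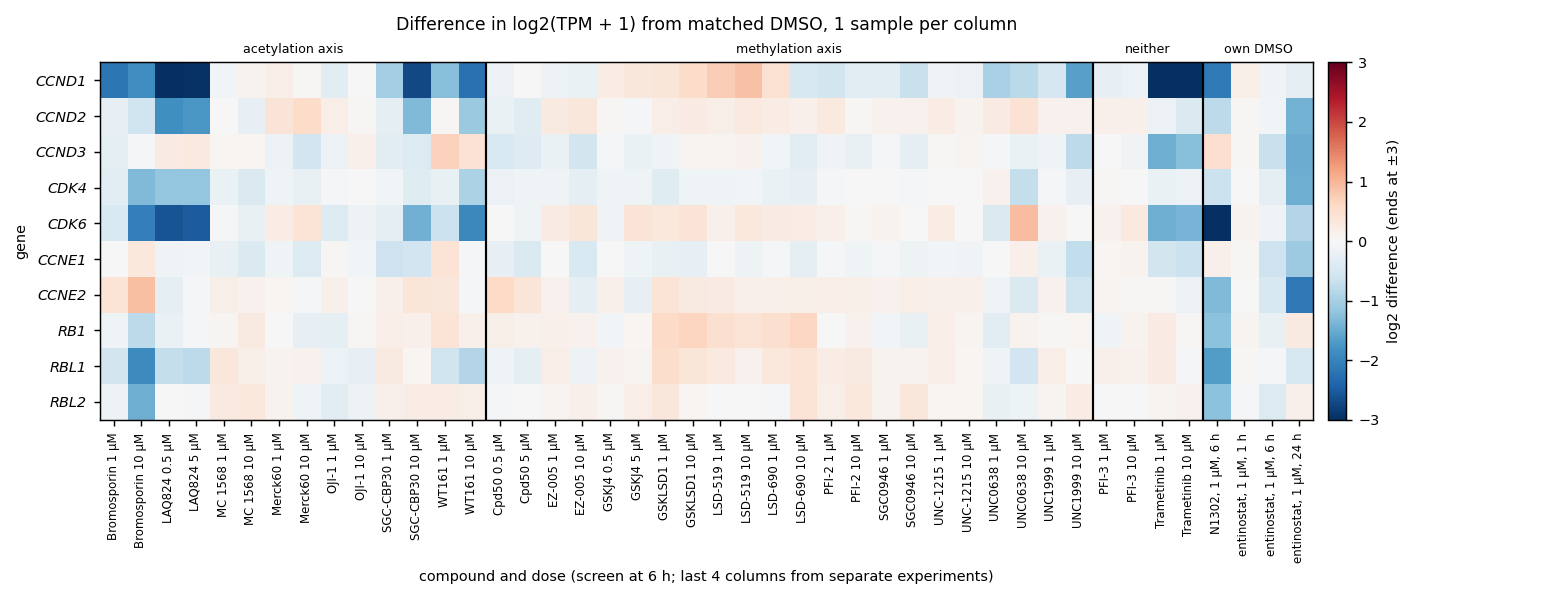
Difference in log2(TPM + 1) of each member (rows) from matched DMSO in each of the 40 treated screen samples and the 4 samples of the N1302 and entinostat experiments (columns), blue lower and red higher, with colours ending at 3 in size. CCND1 and CDK6 are the bluest rows, at -3.63 for CCND1 under Trametinib 1 µM and -3.02 for CDK6 under N1302, while the methylation-axis block is mostly pale.

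CCND1, the D cyclin that growth-factor and RAS-MAPK signalling is best known to raise, was lower under 5 compounds and spanned the widest range of any member. It measured 3.10 TPM under Trametinib 10 µM and 3.35 TPM under 1 µM, against 43.1 to 53.4 TPM in the 4 DMSO samples. LAQ824 gave 4.79 TPM at 5 µM and 5.75 TPM at 0.5 µM, and bromosporin 11.3 TPM at 10 µM and 11.04 TPM at 1 µM. In these 3 compounds both doses lay at a similar level, far below every DMSO sample. The fitted log2 differences were -3.54 ± 0.45 for Trametinib (SE, limma adjusted p = 3.07e-05, about 11.7-fold), -2.98 ± 0.45 for LAQ824 (6.1e-06, 7.88-fold) and -2.02 ± 0.45 for bromosporin (0.00138, 4.04-fold).

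Under SGC-CBP30 and WT161, CCND1 was lower at the high dose than at the low one. SGC-CBP30 left 5.93 TPM at 10 µM and 25.5 TPM at 1 µM, and WT161 left 8.59 and 21.3 TPM. All 4 values lay below the DMSO range. The fitted differences were -1.86 ± 0.45 (limma adjusted p = 0.0193) and -1.75 ± 0.45 (0.00404), and without the high dose they came to -0.89 and -1.14 with the call lost. The SGC-CBP30 call was also lost without either DMSO concentration (-1.99 and -1.73). Under UNC1999, CCND1 was 13.5 TPM at 10 µM and 37.2 TPM at 1 µM, and under UNC0638 24.6 and 26.4 TPM. These 4 values were below DMSO too, but neither compound passed the test (-1.07 ± 0.45, limma adjusted p = 0.628, and -0.89 ± 0.45, 0.18). At the other end LSD-519 gave 82.4 and 89.0 TPM and GSKLSD1 65.1 and 68.5 TPM, above every DMSO sample, with limma adjusted p-values of 0.898 and 0.76.

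Most of the CCND1 calls came from a flow cell without DMSO, and CCND1 is the member for which the choice of reference mattered most. The other reference there was the mean of the remaining compounds. Several of these had low CCND1 themselves, bromosporin, SGC-CBP30, WT161, UNC1999 and UNC0638 among them. An effect of the flow cell was not tested apart from this. With the other compounds of flow cell C5JW5ACXX as the reference, the difference was -2.92 for Trametinib, -1.27 for bromosporin, -1.10 for SGC-CBP30 and -0.98 for WT161, all still called (limma adjusted p of 7.07e-07, 0.00198, 0.0308 and 0.0147). For LAQ824, against the DMSO samples of its own flow cell, it was -2.97 (3.84e-06). CCND1 rested on few of the worked-out reads at its lowest, 65 and 47 in the Trametinib samples, against at least 1264 in each DMSO sample.

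**Figure D2:**
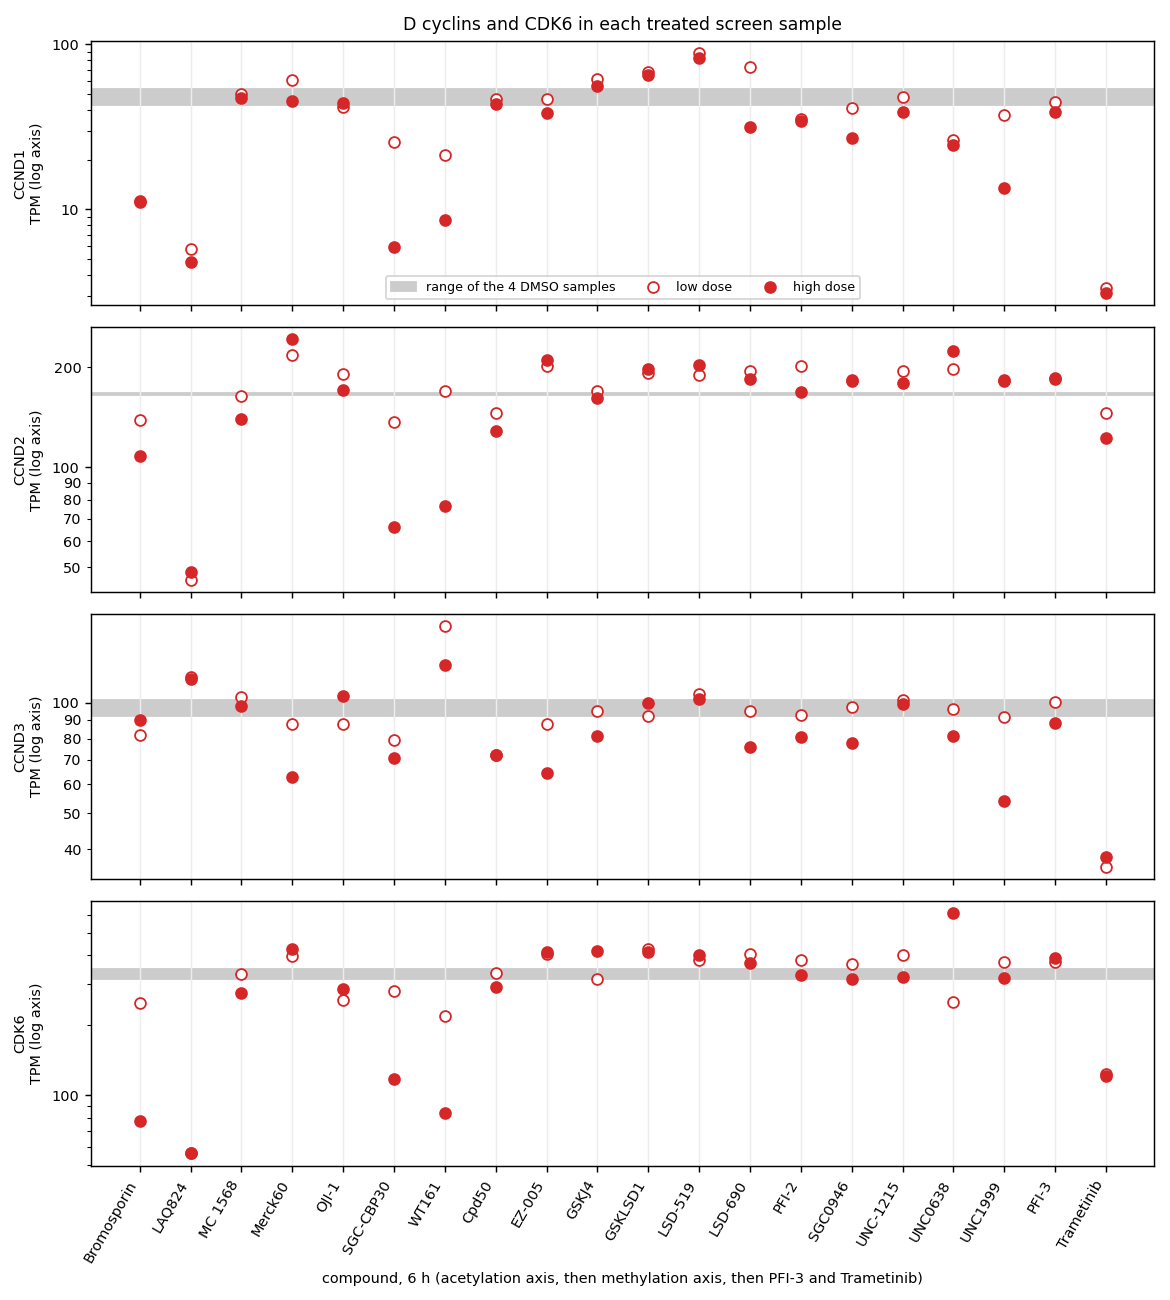
TPM (log axis) of CCND1, CCND2, CCND3 and CDK6 in every treated screen sample, open circles for the low dose and filled circles for the high dose, with the range of the 4 DMSO samples as a grey band. CCND1 falls to 3.10 TPM under Trametinib, CCND2 and CDK6 are lowest under LAQ824 (45.7 and 56.1 TPM), and CCND3 stands at 35.8 and 38.1 TPM under Trametinib but at 127 and 162 TPM under WT161.

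CCND2, the main D cyclin here, was called under LAQ824 alone. It measured 48.5 TPM at 5 µM and 45.7 TPM at 0.5 µM, against 165 to 168 TPM in DMSO. The log2 difference was -1.80 ± 0.25 (SE, limma adjusted p = 2.01e-06, 3.48-fold). The high doses of SGC-CBP30 and WT161 left 65.9 and 76.4 TPM, well below DMSO, while their low doses gave 137 and 169 TPM. Neither passed the test over both doses (-0.80 ± 0.25, limma adjusted p = 0.0704, and -0.54 ± 0.25, 0.0954). Merck60, which is aimed at HDAC1/2, had the highest CCND2 of the screen, 243 TPM at 10 µM and 219 TPM at 1 µM (0.47 ± 0.25, limma adjusted p = 0.757).

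CCND3 was lower along with CCND1 under Trametinib, but did not follow it under WT161 or LAQ824. Trametinib brought it to 38.1 TPM at 10 µM and 35.8 TPM at 1 µM, against 92.3 to 102 TPM in DMSO, or lower by 2.58-fold (log2 -1.37 ± 0.19 SE, limma adjusted p = 9.89e-05). Under WT161 it was higher, at 127 and 162 TPM (0.56 ± 0.19, limma adjusted p = 0.0271), a call lost without either DMSO concentration (0.52 and 0.60) or without the low dose (0.39). LAQ824, which had the lowest CCND2, gave 116 and 118 TPM of CCND3, above every DMSO sample but not past the test (0.27 ± 0.19, limma adjusted p = 0.249).

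The make-up of the D cyclin pool therefore differed between compounds. In the 4 DMSO samples the 3 transcripts summed to 300.3 to 320 TPM, of which CCND1 gave 14.4% to 16.8%, CCND2 51.7% to 54.9% and CCND3 30.6% to 32.0%. Under LAQ824 the sum was 169 TPM at both doses, and CCND3 made up 68.5% and 69.6% of it. Under Trametinib the sum was similar, at 164 TPM (10 µM) and 185 TPM (1 µM), but CCND2 made up 74.9% and 78.9%. WT161 10 µM left 212 TPM with 59.9% CCND3, and SGC-CBP30 10 µM had the smallest sum of the screen at 143 TPM, with 49.6% CCND3.

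**Figure D3:**
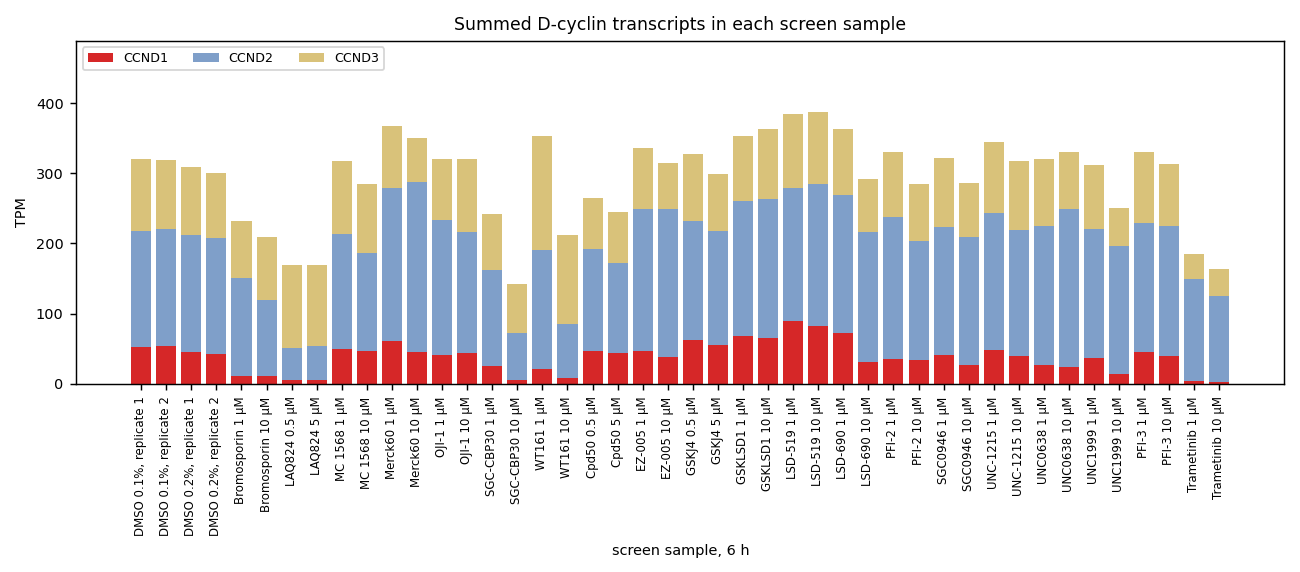
Summed TPM of CCND1 (red), CCND2 (blue) and CCND3 (tan) in each of the 44 screen samples, 1 bar per sample. The 4 DMSO bars reach 300.3 to 320 TPM, LAQ824 and Trametinib 164 to 185 TPM, with mostly CCND3 left under LAQ824 and mostly CCND2 under Trametinib.

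CDK6 was lower under 3 compounds, all of the acetylation axis. LAQ824 left 56.1 TPM at 5 µM and 56.2 TPM at 0.5 µM, against 315 to 348 TPM in DMSO. Bromosporin left 77.0 TPM at 10 µM and 249 TPM at 1 µM, and WT161 83.6 and 219.6 TPM. Every one of these samples was below the DMSO range, and the values of both doses were far apart for the last 2 compounds and alike for LAQ824. The fitted log2 differences were -2.54 ± 0.42 for LAQ824 (SE, limma adjusted p = 2.05e-05, 5.80-fold), -1.25 ± 0.42 for bromosporin (0.0224) and -1.28 ± 0.42 for WT161 (0.0214). The calls for bromosporin and WT161 were lost without the high dose (-0.41 and -0.59), without 0.2% DMSO (-1.29 and -1.32) and without 0.1% DMSO (-1.20 and -1.23).

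Trametinib and SGC-CBP30 also had low CDK6 without a call. Trametinib gave 121 and 124 TPM (-1.43 ± 0.42, limma adjusted p = 0.0705) and SGC-CBP30 118 and 281 TPM (-0.86 ± 0.42, 0.299), with all 4 values below DMSO. UNC0638 split by dose, at 610.5 TPM for 10 µM, the highest CDK6 value of the screen, and 252 TPM for 1 µM, so that its mean difference was 0.25 ± 0.42 (limma adjusted p = 0.744). Merck60, aimed at HDAC1/2, left CDK6 above DMSO at 427 and 396 TPM (0.31 ± 0.42, limma adjusted p = 0.984).

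CDK4, the most abundant member and the other partner of the D cyclins, moved less. It measured 282 TPM at 5 µM and 297 TPM at 0.5 µM of LAQ824, against 632 to 661 TPM in DMSO (-1.16 ± 0.25 SE, limma adjusted p = 0.000366, 2.23-fold). Bromosporin gave 252 TPM at 10 µM, the lowest CDK4 value of the screen, and 517 TPM at 1 µM (-0.84 ± 0.25, limma adjusted p = 0.0104). This call was lost without the high dose (-0.32) and without 0.1% DMSO (-0.81). The high doses of WT161 and UNC0638 left 328 and 383 TPM, and their low doses 565 and 719.8 TPM. CDK4 and CDK6 together summed to 952 to 1005 TPM in DMSO, with CDK6 at 33.1% to 34.6% of the sum. Under LAQ824 the sum was 338 and 353 TPM and the CDK6 share 16.6% and 15.9%, so CDK6 was lower by more than CDK4 was. Under UNC0638 10 µM the sum stayed at 994 TPM while the CDK6 share was 61.4%.

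The E cyclins are partners of the kinase CDK2, which acts after CDK4 and CDK6 at the entry to S phase. CCNE1 spanned 117 to 254 TPM over the 40 treated samples, with a median of 178 TPM, against 189 to 195 TPM in DMSO. It was lower under SGC-CBP30, at 129 TPM for 10 µM and 124.5 TPM for 1 µM, and under Trametinib, at 124 and 131 TPM. These 4 values lay close together below the DMSO range, and the log2 differences were -0.60 ± 0.15 (SE, limma adjusted p = 0.0246) and -0.59 ± 0.15 (0.0302). Neither call held without 1 dose or 1 DMSO concentration, where the differences ran from -0.63 to -0.56. LAQ824, under which CCND1, CCND2, CDK4 and CDK6 were lower, left CCNE1 at 184 and 177 TPM.

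CCNE2 was higher under bromosporin, at 113 TPM for 10 µM and 78.8 TPM for 1 µM, against 58.6 to 61.2 TPM in DMSO. The log2 difference was 0.65 ± 0.19 (SE, limma adjusted p = 0.0103), and the call was lost without the high dose (0.39) and without 0.2% or 0.1% DMSO (0.65 and 0.64). Cpd50 gave 77.0 and 91.3 TPM without a call (0.48 ± 0.19, limma adjusted p = 0.165), and against the DMSO of its own flow cell its difference was 0.49. The lowest CCNE2 value was 39.5 TPM, under UNC1999 10 µM.

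Of the pocket proteins, RBL1 (p107) was called most often. Bromosporin left 7.06 TPM at 10 µM and 19.7 TPM at 1 µM, against 28.5 to 29.7 TPM in DMSO. WT161 left 15.3 and 18.8 TPM, and LAQ824 16.3 and 17.5 TPM. All 6 samples were below DMSO. The log2 differences were -1.22 ± 0.24 for bromosporin (SE, limma adjusted p = 0.000561, 2.33-fold), -0.75 ± 0.24 for WT161 (0.0198) and -0.75 ± 0.24 for LAQ824 (0.011). Without the high dose none of the 3 was called (-0.54, -0.61 and -0.71), and the WT161 call was also lost without either DMSO concentration (-0.75 and -0.74). These are 3 of the compounds under which CDK4 or CDK6, whose promoters are printed above with that of RBL1, were also lower.

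RBL2 (p130) and RB1 were lower under bromosporin, mainly at the high dose. RBL2 measured 12.4 TPM at 10 µM and 32.2 TPM at 1 µM, against 35.2 to 36.6 TPM in DMSO (-0.81 ± 0.22 SE, limma adjusted p = 0.00661). RB1 measured 39.9 and 66.0 TPM, against 66.5 to 74.1 TPM (-0.45 ± 0.17, limma adjusted p = 0.0394). Without the high dose the differences came to -0.15 and -0.09, and neither was called. The RB1 call was also lost without either DMSO concentration (-0.47 and -0.42) and with median-ratio scaling (-0.33).

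RB1 stood above DMSO under all 3 LSD1 inhibitors, but not under these alone. Both doses lay above the DMSO range under 8 of 20 compounds, WT161 among them (77.4 TPM at 10 µM and 95.9 TPM at 1 µM). GSKLSD1 gave 107.8 and 108.1 TPM, LSD-690 106 and 99.9 TPM, and LSD-519 92.5 and 101 TPM. All 6 samples of these inhibitors exceeded the highest DMSO sample at 74.1 TPM. Only GSKLSD1 was called (0.61 ± 0.17 SE, limma adjusted p = 0.0395), with 0.54 ± 0.17 for LSD-690 (0.126) and 0.45 ± 0.17 for LSD-519 (0.421). The call was lost without either dose (0.61 in both) or either DMSO concentration (0.58 and 0.64). All 3 LSD1 inhibitors were sequenced on flow cells with no DMSO. For GSKLSD1, against UNC-1215 on the same flow cell, the difference was 0.47 (limma adjusted p = 0.287).

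**Figure D4:**
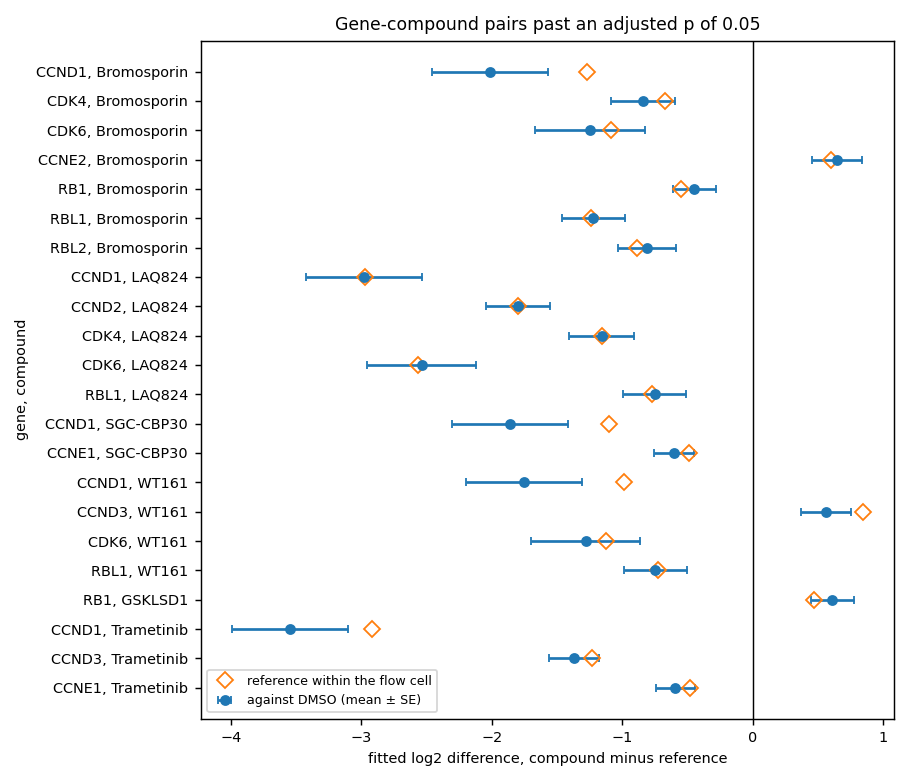
Fitted log2 difference of the 22 called gene-compound pairs against DMSO (filled circles, bars ± SE) and against the reference within the flow cell (open diamonds). The largest are CCND1 under Trametinib (-3.54) and LAQ824 (-2.98), and CCND1 is the gene whose diamonds lie farthest from its circles for the compounds without DMSO on their flow cell. The reference of these CCND1 diamonds is the mean of the other compounds there, several with low CCND1.

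The study asked whether acetylation and methylation inhibitors act differently, so the members were compared between 7 acetylation-axis and 11 methylation-axis compound means. CDK6 had the largest evidence, with mean log2(TPM + 1) of 7.51 and 8.53 (difference -1.02 ± 0.26 SE, limma adjusted p = 0.0568). CCND1 differed by -1.07 ± 0.38 (0.0815), CCND2 by -0.59 ± 0.21 (0.08), CDK4 by -0.34 ± 0.12 (0.083) and RBL1 by -0.45 ± 0.18 (0.108). CCND3 (0.16 ± 0.12), CCNE1 (0.02 ± 0.10) and CCNE2 (0.07 ± 0.11) had higher means on the acetylation axis, all with limma adjusted p-values of 0.362 or above, and CCNE1 and CCNE2 changed sign at the low dose alone. No member and no gene passed an adjusted p of 0.05 (0 of 16359 genes, 5018 at an unadjusted p below 0.05). Within flow cell C5JW5ACXX, which held 5 and 7 of the compounds, CDK6 differed by -0.85 (limma adjusted p = 0.227) and CCND1 by -0.81 (0.339).

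The acetylation axis was far from uniform. LAQ824, bromosporin, WT161 and SGC-CBP30 carried all 18 calls of that axis, with the shares over all genes given above, and Merck60, OJI-1 and MC 1568 had none. Of all 16359 genes, Merck60 had 15 called lower and 4 higher and OJI-1 14 and 14. MC 1568 had 478 and 3205, so the absence of member calls is not alike in these 3. Leaving out 1 compound at a time gave 3 called members without MC 1568 and 4 without Merck60 or OJI-1, and 0 without any of the others. Over all genes the count of 0 became 2503 without MC 1568, 2673 without Merck60 and 3056 without OJI-1. On the methylation axis 1 of 110 pairs was called, the RB1 difference under GSKLSD1, where 2.81% of all genes were called higher. Most of these compounds called few genes at all, such as 10 lower and 2 higher of 16359 under EZ-005, but UNC0638 called 1596 and 388.

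Other genes of the pathway were examined as 5 lists with 50 genes in all, given here mainly for the 6 compounds with called members. Under LAQ824, 21 of the 50 were called lower and 13 higher, where 24.6% and 28.4% of all genes were. Under WT161 13 were lower and 14 higher, where 14.3% and 17.7% of all genes were. Under bromosporin 12 were lower and 11 higher, where 23.4% and 12.4% were. The same shares over all genes apply to the counts per list below, and whether a list differed from them was not tested. SGC-CBP30 had 1 higher, CDK2 (0.40 ± 0.08 SE, limma adjusted p = 0.00841), where 0.727% of all genes were called higher. Trametinib and GSKLSD1 had 0 of 50 called, with 8 and 7 at an unadjusted limma p below 0.05. Some compounds without a called member had list genes called. UNC0638 had 2 lower and 4 higher, where 1596 and 388 of all 16359 genes were. Cpd50 had 3 lower, where 371 of all genes were. MC 1568 and PFI-2 had 1 higher each, where 3205 and 24 of all genes were.

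The CDK inhibitors, which block cyclin-CDK complexes, went in both directions, with 3 of 7 higher and 2 lower under each of LAQ824, WT161 and bromosporin. CDKN2D (p19) and CDKN2B (p15), which bind CDK4 and CDK6, were higher under all 3. CDKN2D differed by 3.27 ± 0.49 under LAQ824 (SE, limma adjusted p = 6.17e-06), 2.32 ± 0.49 under WT161 (0.000884) and 1.97 ± 0.49 under bromosporin (0.00329), and CDKN2B by 2.35 ± 0.40, 1.56 ± 0.40 and 1.80 ± 0.40 (2.88e-05, 0.00425 and 0.00145). CDKN2C (p18) and CDKN1B (p27) were lower under LAQ824, by -1.13 ± 0.28 and -1.13 ± 0.29 (limma adjusted p of 0.00175 and 0.00187).

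Of the 10 E2F and DP factors, 6 were lower and 1 higher under LAQ824, 2 and 1 under WT161 and 3 and 1 under bromosporin. E2F2, an activating E2F, differed by -1.62 ± 0.30 under both LAQ824 and bromosporin (SE, limma adjusted p of 6.82e-05 and 0.000316), and E2F3 by -1.24 ± 0.20 under LAQ824 (1.57e-05). Among the 15 S-phase genes, 7 were lower and 3 higher under LAQ824, 5 and 2 under WT161 and 6 and 3 under bromosporin. TYMS, which makes thymidylate for DNA, differed by -1.52 ± 0.21 under LAQ824 (limma adjusted p = 1.99e-06) and -1.17 ± 0.21 under WT161 (0.000188), and MCM5, a subunit of the replicative helicase, by -1.66 ± 0.28 under bromosporin (0.000173). CDC6, a loader of that helicase, was higher under LAQ824 (1.01 ± 0.17, limma adjusted p = 2.44e-05) and WT161 (0.98 ± 0.17, 0.000128).

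The 12 other cyclins, kinases and activators had 4 lower and 4 higher under LAQ824, 3 and 5 under WT161 and 0 and 3 under bromosporin. SKP2, the ubiquitin-ligase subunit that targets CDKN1B, differed by -2.16 ± 0.21 under LAQ824 (SE, limma adjusted p = 3.09e-08) and -1.10 ± 0.21 under WT161 (0.000364). FBXW7, which targets cyclin E for degradation, was higher under all 3, by 0.97 ± 0.18, 1.06 ± 0.18 and 1.12 ± 0.18 for LAQ824, WT161 and bromosporin (8.97e-05, 0.00013 and 0.000135). The DREAM list of 6 genes went in both directions, with 2 lower and 2 higher under LAQ824, 1 and 3 under WT161 and 1 and 1 under bromosporin. LIN37 was higher under LAQ824 (1.92 ± 0.31, limma adjusted p = 1.52e-05) and WT161 (1.03 ± 0.31, 0.013), and LIN54 under WT161 (0.57 ± 0.21, 0.0426). LIN9, a partner of RBL1 and RBL2 in a repressor complex, was lower under LAQ824 (-1.89 ± 0.28, limma adjusted p = 6.75e-06), WT161 (-1.32 ± 0.28, 0.00106) and bromosporin (-0.83 ± 0.28, 0.0253). MYBL1, from the same list, was higher under the same 3 (2.16 ± 0.35, 1.37 ± 0.35 and 1.505 ± 0.353, with limma adjusted p of 1.81e-05, 0.0044 and 0.00219).

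N1302, an HDAC inhibitor found in the study's own screening, was measured in 1 sample against 1 DMSO sample, so there is no replicate check and no test. CDK6 was 52.1 TPM under 1 µM N1302 and 429 TPM in its DMSO, a log2 difference of -3.02 (8.11-fold). CCND1 was 7.46 and 35.6 TPM (-2.11, 4.33-fold) and RBL1 12.9 and 43.7 TPM (-1.69, 3.22-fold). CCNE2 (28.1 and 71.9 TPM), RB1 (41.5 and 99.5 TPM) and RBL2 (13.6 and 33.6 TPM) were lower by at least 2-fold as well. In all 6 of 10 members were past 2-fold lower, where 19.3% of all genes were, and 0 were past 2-fold higher, where 11.6% were.

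The other members under N1302 were CCND2 at 73.2 against 128 TPM, CDK4 at 334 against 522 TPM, CCNE1 at 159 against 142 TPM and CCND3 at 119.9 against 83.6 TPM. The median difference of the members was -1.24 and that of all genes tested -0.11. Median-ratio scaling moved all genes by 0.33 on the log2 scale and left 4 members past 2-fold, with RB1 at -0.92 and RBL2 at -0.93. As under LAQ824 and WT161 10 µM, CCND3 made up the larger part of the D cyclin sum, 59.8% against 33.9% in DMSO. LAQ824 and WT161 were given at other doses than N1302 and in the screen, so the values stand side by side only.

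The entinostat series followed the members over time, with 1 sample per point. At 1 h the members differed from DMSO by at most 0.164 on the log2 scale. At 6 h 0 of 10 members were past 2-fold in either direction, where 0.947% of all genes were lower and 5.13% higher by that much. The largest differences at 6 h were those of CCND3 (76.0 against 121 TPM, -0.66) and CCNE1 (83.5 against 129 TPM, -0.63), while CCND1 (28.1 against 30.2 TPM) and CDK6 (293 against 316 TPM) were close to DMSO.

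At 24 h 5 of 10 members were past 2-fold lower, where 6.06% of all genes were, and 0 past 2-fold higher, where 16.4% were. CCNE2 was 12.6 TPM under entinostat and 59.5 TPM in DMSO (-2.15, 4.45-fold). CCND3 was 41.3 and 118 TPM (-1.49), CDK4 201 and 555 TPM (-1.46), CCND2 51.5 and 140.1 TPM (-1.43) and CCNE1 62.5 and 134 TPM (-1.09). CDK6 was 175 and 324 TPM (-0.88) and RBL1 27.9 and 39.2 TPM (-0.48). CCND1, the member with the widest range in the screen, was 24.3 and 29.3 TPM (-0.26). RB1 (85.6 and 70.4 TPM) and RBL2 (39.9 and 35.8 TPM) were slightly above DMSO. The median difference of the members was -0.99 and that of all genes tested 0.10. With median-ratio scaling 4 members were past 2-fold, CCNE1 then being at -0.997.

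**Figure D5:**
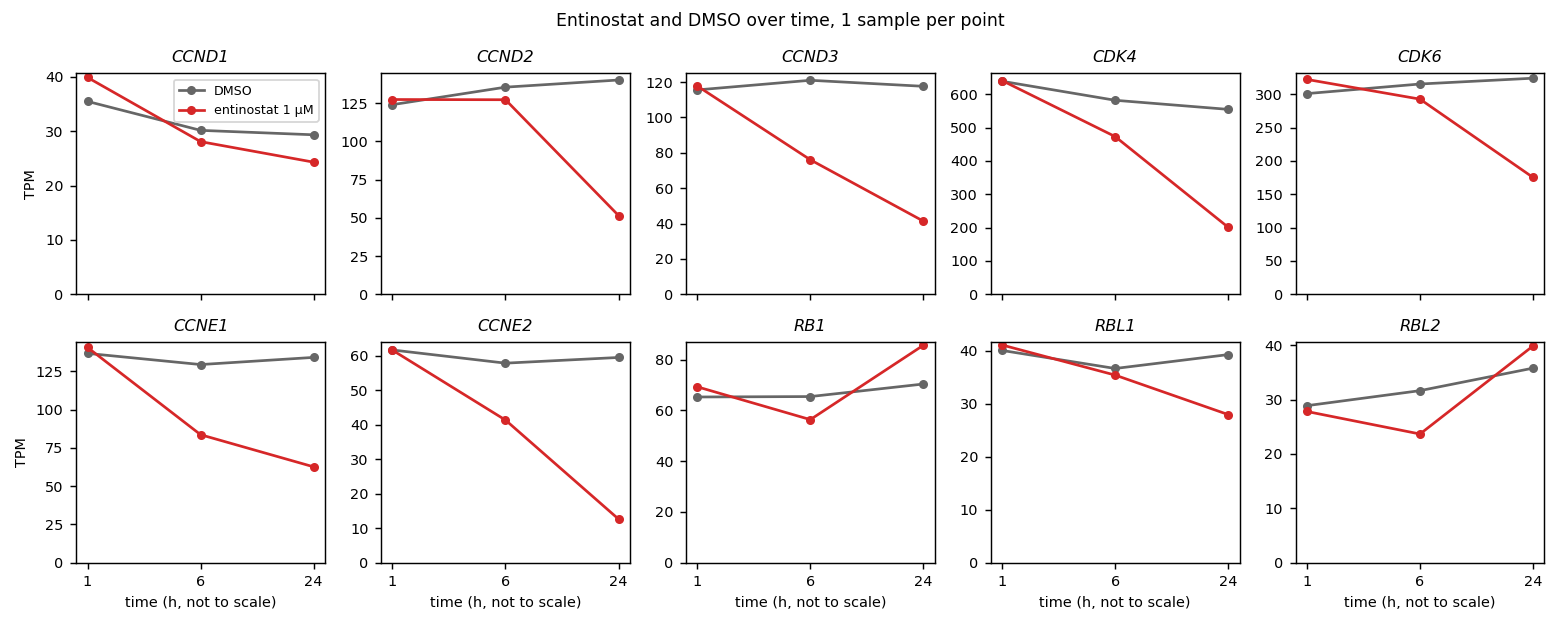
TPM of each member in DMSO (grey) and under entinostat 1 µM (red) at 1, 6 and 24 h, 1 sample per point, with time points evenly spaced. The curves start together at 1 h, and at 24 h CCND2, CCND3, CDK4, CCNE1 and CCNE2 are past 2-fold below DMSO while CCND1, RB1 and RBL2 stay near it.

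The entinostat order of the members thus differed from that of N1302 and LAQ824 at 6 h, where CCND1 and CDK6 were lowest. Times and doses differ, and the screen, which holds LAQ824, is given as both RH41 and RH4. The values stand side by side only, and the difference between compounds was not tested. Among the 50 other pathway genes, 12 of 15 S-phase genes were past 2-fold lower under entinostat at 24 h and 0 at 6 h, with MCM5 lowest at -2.39. CDKN1A (p21), the inhibitor that p53 raises, was 2.16 higher on the log2 scale at 6 h and 3.32 higher at 24 h. MCM5 and CDKN1A were picked here as the extremes of their lists.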

How the data were processed

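RNA-seq was performed on 52 samples of FP-RMS cells. The authors selected poly-A RNA, sequenced it on an Illumina HiSeq2000, aligned reads to hg19 with STAR, computed gene levels with RSEM and deposited 1 TPM value per gene and sample. The submitters' processing notes also name edgeR, with no role given. TPM adds to the same total in every sample, so a large fall of some genes raises the others. Whole reads, worked out from the steps between TPM values in 23524 of 23645 genes with a TPM above 0 (99.49%), served only to describe depth.

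Groups came from the labels' treatment and time, and flow cells from the names of the deposited tables. Values were analysed as log2(TPM + 1), which understates the change of low genes. The tests covered the 16359 genes that reached 1 TPM in 2 or more of all 52 samples. A linear model (limma 3.58.1, run in R 4.3.3, with variances moderated along a mean-variance trend) was fitted to the 40 treated screen samples and 2 DMSO values, each the mean of both samples of a concentration, with Benjamini-Hochberg adjustment over all genes and calls made below 0.05. The doses of a compound served as its replicates, and nothing in the labels says that samples came from separate cultures. Axes were compared on 18 compound means. N1302 and entinostat had 1 sample per group and no test, and past 2-fold means a log2 difference of at least 1. In simulated data for 1 compound against DMSO (16359 genes), 63 of 100 genes changed 2-fold and 96 of 100 changed 4-fold were called, with 5 false calls. Alternatives were a pseudocount of 0.1, no filter, a mean of at least 5 TPM, median-ratio scaling over 6316 genes, all 4 DMSO samples, dose level as a term, fits to single compounds, references within a flow cell, a 2-fold minimum and leaving out samples.

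The members and lists were chosen with earlier results of these data known. Named are all 10 members, of each pathway list at most 4 genes per compound with the smallest limma p, and for each member the 3 genes with the highest Pearson r over the screen. The remaining steps used numpy 2.4.6, pandas 2.3.3 and matplotlib 3.10.9 under Python 3.11.15.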

Additional observations from a re-analysis of the deposited data

Results flagged for a closer look

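RB1 under entinostat was below its DMSO sample at 6 h (56.3 against 65.4 TPM, a log2 difference of -0.2121) and above it at 24 h (85.6 against 70.4 TPM, 0.2801). It was the member whose differences had opposite signs at these times, both at least 0.2 in size, without rescaling. After median-ratio scaling RB1 was at -0.09 at 6 h and 0.37 at 24 h, and RBL2 at -0.29 and 0.24. Each time rests on 1 sample per group, and the difference between times was not tested.

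In the screen, 2 members differed from DMSO in opposite directions at the doses of 1 compound, by at least 0.2 in size. CDK6 under UNC0638 was 252 TPM at 1 µM (-0.4359 against 0.1% DMSO) and 610.5 TPM at 10 µM (0.9292 against 0.2% DMSO). CCND1 under LSD-690 was 73.0 TPM at 1 µM (0.4589) and 31.5 TPM at 10 µM (-0.4709). Each dose had 1 sample, and the difference between doses was not tested. CCND1 under LSD-519 and GSKLSD1, also aimed at LSD1, was above the DMSO range at both doses, with 82.4 and 65.1 TPM at 10 µM.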

How the results depend on the processing

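Over 12 alternatives, the 22 called pairs gave 264 values, of which 208 kept their direction and their call, 56 kept their direction only and 0 reversed. CCND1, CCND2, CDK4 and CDK6 under LAQ824 and CCND1 and CCND3 under Trametinib kept the call in all 12. The 19 lower pairs became 12 with a 2-fold minimum and 7 to 21 when doses or DMSO concentrations were left out (7 without the high doses, 21 without the low ones, 12 without 0.2% DMSO and 11 without 0.1% DMSO). The 3 higher pairs became 5 with all 4 DMSO samples, 6 with references within the flow cell, 0 with a 2-fold minimum, and 0 to 1 when doses or concentrations were left out. Fewer samples entered these fits. Fitted to its own samples and DMSO alone, 13 of the 22 pairs lost the call.

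Between axes, 0 members became 1 with a mean of at least 5 TPM, where fewer genes were tested, 2 at the high dose alone, and 0 to 4 when 1 compound was left out, while the 0 genes became 761, 1614 and 0 to 3056. The difference of CCNE1 became -0.0086 and that of CCNE2 -0.0565 at the low dose alone; leaving out compounds it ran from -0.0349 to 0.0963 and from -0.014 to 0.1182. The cause was not tested.

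With a replicate block, 0 members and 0 genes differed between DMSO concentrations, as without it, and 1768 rather than 1548 genes had an unadjusted p below 0.05. Of the members, CCND1 and CDK4 were below it without the block, and CCND3 and CDK6 as well with it. In these 4 samples the replicate number coincides with the flow cell, and samples sharing a number correlated at 0.0719 in their deviations. At the lowest levels, reads limit CCND1, with 47 in 1 sample.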

Other observations

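For each member, 3 other genes had the most similar pattern over the 44 screen samples, by Pearson r of log2(TPM + 1) among 11121 genes with a mean of at least 5 TPM. The samples share flow cells, controls and a few compounds with many changed genes, and the values are a description. CDK6 was most like RUNX2 (0.98), a transcription factor of bone and muscle lineages, DICER1 (0.96) and SPRY2 (0.96), a feedback inhibitor of receptor signalling. CCND2 was most like FOXO1 (0.94), TGIF1 (0.94) and DMRT2 (0.93). The FOXO1 row does not tell the fusion transcript from that of the intact gene. CCND1 was most like ARHGAP6 (0.92), SEZ6 (0.92) and CHRNA1 (0.90), a muscle acetylcholine receptor subunit. CDK4 was most like HDDC2, EMG1 and PIGC (0.95, 0.95 and 0.94).

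RBL1 was most like FANCD2 (0.94), CDK5RAP2 (0.93) and CDC7 (0.93), the kinase that fires replication origins, and RBL2 most like BAP1, ZGRF1 and ZNF585B (0.89 each). The remaining members had weaker matches. CCND3 was most like RASA3 (0.80), ARHGAP29 (0.79) and CHST8 (0.76), RB1 like HINT3 (0.79), NIPA1 (0.78) and C11orf54 (0.78), CCNE2 like KCTD12 (0.77), FGFR1 (0.76) and FAM111B (0.74), and CCNE1 like BAG1 (0.66), KITLG (0.61) and MIDN (0.58).

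The ratio of summed D cyclin to summed E cyclin TPM was 1.17 to 1.28 in the 4 screen DMSO samples. It was 0.594 under bromosporin 10 µM, 0.688 under SGC-CBP30 10 µM and 0.698 and 0.747 under LAQ824 5 and 0.5 µM. The highest in the screen was 1.74, under Merck60 10 µM. Outside the screen the ratio was 1.85 under entinostat at 6 h, where its own DMSO sample had 1.53. These are values of single samples.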
